A study of Mus musculus with 8 samples.

Results

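Collagen genes were followed in mouse embryonic stem (ES) cells that did or did not carry the chromatin regulator RBP2, before and after the cells were taken out of the pluripotent state. The genes were chosen by name alone, as every probe set whose single gene symbol has the form of a collagen chain (Col1a1, Col4a2 and so on). This gave 82 of 45101 probe sets and 42 of 18193 genes on the array. By class, 11 of the 42 genes encode chains of fibrillar collagens, 6 encode the type IV chains of basement membranes and 25 encode chains of other types. Each gene was represented by the probe set with the highest mean, and 25 genes were bright enough to be tested: 10 fibrillar, 4 type IV and 11 other.

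The study hybridised RNA from 8 samples in 4 groups of 2, each to its own Affymetrix mouse genome array. Rbp2f/f ES cells and Rbp2-/- ES cells were each taken in ES cell medium, which contains the cytokine LIF (leukaemia inhibitory factor), and after 6 days in that medium without LIF. Rbp2, also named Kdm5a, encodes a demethylase of lysine 4 on histone H3, and LIF withdrawal lets mouse ES cells differentiate. The labels call the 2 samples of a group biological replicates but do not give the number of clones behind a genotype, whether feeder cells were present or whether replicates came from separate cultures. The p-values therefore measure the spread between these samples, which may be technical, and an effect of RBP2 loss cannot be told apart from other differences between the cell lines.

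Collagens are extracellular proteins built from chains that wind around each other into a helix. Fibrillar collagens (types I, II, III, V, XI, XXIV and XXVII) are cut by proteases outside the cell and assemble into the fibres of connective tissue, with type V and XI chains nucleating fibrils and limiting their width. Type IV chains keep their ends and join into the flat network of basement membranes, the sheets that underlie epithelia and are laid down from the first days of the embryo. The other collagens coat fibrils, anchor basement membranes, form beaded filaments or span the cell membrane.

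Intensity is given on the linear scale of the deposited values and cannot be compared between probe sets. Changes are differences of log2(intensity + 16), with the standard error (SE) of limma's fit to all 8 arrays, and were called at an adjusted p under 0.05 over the 10916 genes tested. The median gene itself moved, by -0.28 between genotypes with LIF, 0.02 without LIF, 0.07 on withdrawal in Rbp2f/f and 0.39 on withdrawal in Rbp2-/-, so every change below is relative to that median. The p-values test the change before that subtraction. For this reason the result after quantile normalization, which sets the medians to within 0.03 of 0, is given where it ends a call. The array of Rbp2-/- with LIF replicate 2 was dim, with a trimmed mean of 77.5 against 110.5 to 128.4 on the others. Kdm5a, whose probe set checks the genotype labels, read 128 and 167 on the Rbp2f/f arrays with LIF and 31.2 and 30.6 on those of Rbp2-/-. Without LIF it read 226 and 247 on the Rbp2f/f arrays and 100 and 80.2 on those of Rbp2-/-. The genotypes did not overlap in either medium. Of all tested genes, 39.2% with LIF and 22.8% without were also lower in Rbp2-/- without overlap. Limma called Kdm5a lower with LIF (adjusted p = 0.0219, and 0.083 after quantile normalization). Without LIF it was not called (adjusted p = 0.0878, and 0.119 after quantile normalization). On withdrawal in Rbp2-/- Kdm5a rose by 0.79 (adjusted p = 0.00518). All 10 ES cell markers, among them Pou5f1, Nanog and Sox2, fell on withdrawal in both genotypes (9 of 10 in Rbp2-/- after quantile normalization).

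LIF withdrawal raised collagen genes in both genotypes. Limma called 11 of the 25 tested collagens higher and 0 lower on withdrawal in Rbp2f/f, where 13.2% of all tested genes were called higher and 6.8% lower. After quantile normalization 10 were called against 14% of all genes. In Rbp2-/- it called 9 of 25 higher and 0 lower, where 19.6% of all genes were called higher and 3.2% lower. After quantile normalization 5 were called, Col1a1, Col4a5, Col4a6, Col5a1 and Col23a1, against 7.34% of all genes. In Rbp2f/f both arrays without LIF exceeded both arrays with LIF for 17 of 25 collagens (38.3% of all genes) and lay below them for 0 (29.9%). In Rbp2-/- 20 were higher without overlap (51.9% of all genes) and 0 lower (7.54%). The median change over the 25 was 0.72 in Rbp2f/f and 0.38 in Rbp2-/-. Without replicate 1 of Rbp2-/- with LIF the latter was 0.12, and without replicate 2 it was 0.65, while in Rbp2f/f the median ranged from 0.50 to 1.07 with 1 array left out and was 0.27 with no filter on dim genes. Without replicate 2 of Rbp2f/f with LIF the count in Rbp2f/f fell from 11 to 7, and with a stricter filter on dim genes it was 7 of 10.

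Among fibrillar collagens, LIF withdrawal in Rbp2f/f cells raised both type I chains, the type III chain and 1 chain each of types V and XI. Of the 10 tested genes 5 rose and 0 fell: Col1a1, Col1a2, Col3a1, Col5a1 and Col11a1. The median change of the 10 was 1.00. In Rbp2-/- cells 3 rose, Col1a1, Col5a1 and Col27a1, and the median was 0.38. Over all tested genes, 13.2% were called higher in Rbp2f/f and 19.6% in Rbp2-/-. After quantile normalization the fibrillar counts were 4 and 2, against 14% and 7.34% of all genes.

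Col5a1, the main chain of type V collagen, read 104 and 112 on the Rbp2f/f arrays with LIF and 271 and 426 on those of Rbp2-/-, and 698 and 598 on the Rbp2f/f arrays without LIF and 1173 and 959 on those of Rbp2-/-. The 4 groups were therefore ordered without overlap, with Rbp2-/- above Rbp2f/f in each medium and both genotypes higher without LIF. The withdrawal change was 2.35 ± 0.28 in Rbp2f/f (adjusted p = 4.85e-05) and 1.21 ± 0.28 in Rbp2-/- (adjusted p = 0.00142). Both were called under each of the 21 alternative settings.

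Col3a1, which forms homotrimeric type III fibrils, read 105 and 48.1 on the Rbp2f/f arrays with LIF and 48.8 and 108 on those of Rbp2-/-, so the genotypes overlapped there. Without LIF its Rbp2f/f arrays read 411 and 446 and its Rbp2-/- arrays 148 and 179. The rise in Rbp2f/f was 2.27 ± 0.35 (adjusted p = 0.000306). In Rbp2-/- the change was 0.61 ± 0.35 and was not called (adjusted p = 0.05 after rounding, and 0.397 after quantile normalization).

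Col11a1, a type XI chain that co-assembles with type V, was also highest in Rbp2f/f cells without LIF. It read 64 and 43.1 on the Rbp2f/f arrays with LIF and 34.6 and 45.2 on those of Rbp2-/-, and 195 and 318 on the Rbp2f/f arrays without LIF and 62.6 and 115 on those of Rbp2-/-. All arrays without LIF were above those with LIF of the same genotype. The change was 1.88 ± 0.32 in Rbp2f/f (adjusted p = 0.00065) and 0.48 ± 0.32 in Rbp2-/- (adjusted p = 0.0608).

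Col1a1 and Col1a2 encode the chains of type I collagen. Col1a1 read 226 and 115 on the Rbp2f/f arrays with LIF and 384 and 127 on those of Rbp2-/-, and 515 and 539 on the Rbp2f/f arrays without LIF and 2811 and 716 on those of Rbp2-/-. The last pair lies furthest apart. Its change was 1.54 ± 0.54 in Rbp2f/f (adjusted p = 0.0454, and 0.0866 after quantile normalization) and 2.20 ± 0.54 in Rbp2-/- (adjusted p = 0.00371). The call in Rbp2f/f was lost under 16 of 21 alternatives. Without replicate 1 of Rbp2-/- lacking LIF the change in Rbp2-/- was 1.17, the lowest over the arrays left out, and the call there was lost without replicate 2 of Rbp2-/- with LIF (adjusted p = 0.0871) and with a robust prior.

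Col1a2 read 109 and 58.1 on the Rbp2f/f arrays with LIF and 232 and 173 on those of Rbp2-/-, and 232 and 240 on the Rbp2f/f arrays without LIF and 401 and 231 on those of Rbp2-/-. Rbp2-/- cells with LIF lay above Rbp2f/f cells with LIF, and withdrawal left the Rbp2-/- arrays overlapping. The change was 1.32 ± 0.32 in Rbp2f/f (adjusted p = 0.00743) and 0.19 ± 0.32 in Rbp2-/- (adjusted p = 0.211). The call was lost without replicate 2 of Rbp2f/f with LIF (adjusted p = 0.101).

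Col27a1, a fibrillar chain of cartilage and developing epithelia, read 104 and 89.9 on the Rbp2f/f arrays with LIF and 70.4 and 77.8 on those of Rbp2-/-, and 122 and 121 on the Rbp2f/f arrays without LIF and 132 and 142 on those of Rbp2-/-. Its change in Rbp2-/- was 0.38 ± 0.25, called as deposited (adjusted p = 0.0369) but not after quantile normalization (adjusted p = 0.321), and in Rbp2f/f it was 0.22 (adjusted p = 0.449). The remaining tested fibrillar genes, Col2a1, Col5a2, Col5a3 and Col11a2, had changes between -0.44 and 0.68 in Rbp2f/f and between -0.09 and 0.38 in Rbp2-/-, and none was called. Col5a2, which pairs with Col5a1 in type V collagen, stood at -0.02 and 0.00.

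**Figure D1:**
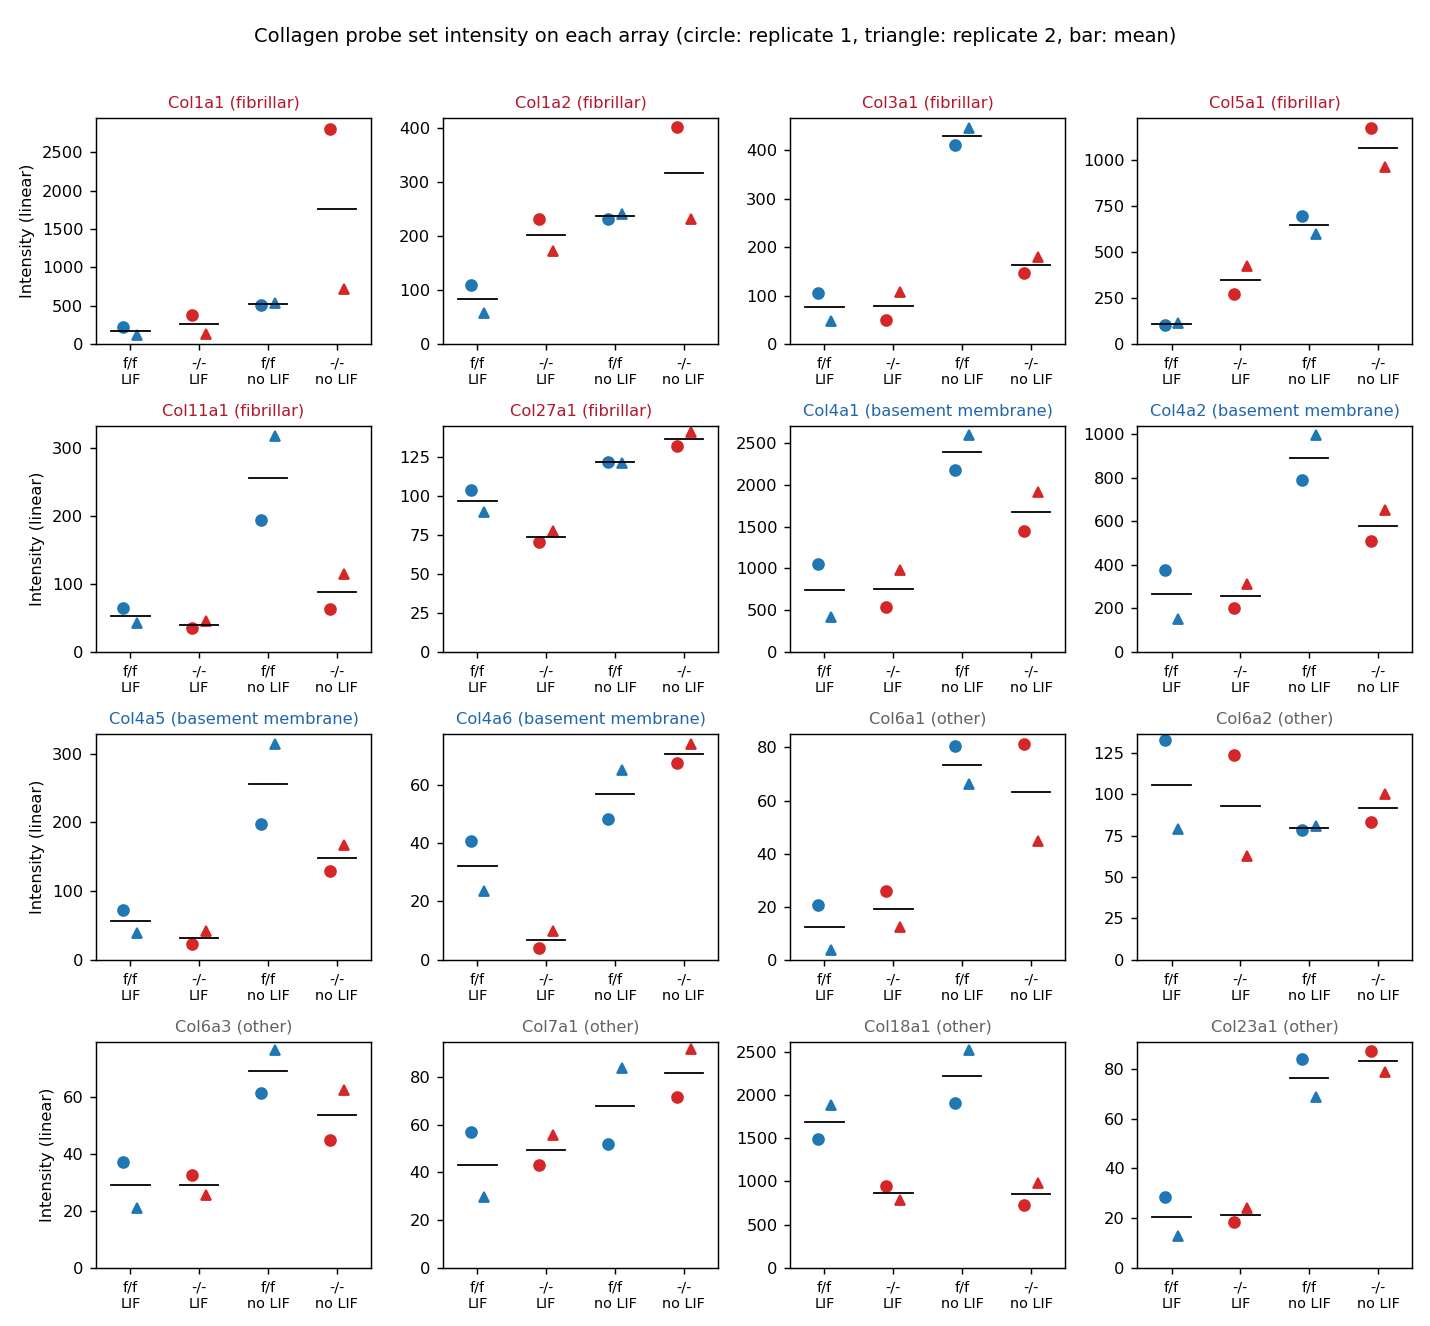
Linear intensity (vertical axis, from 0, its own scale in each panel) of 16 collagen probe sets in the 4 groups (horizontal axis), with circles for replicate 1, triangles for replicate 2, bars for the mean, blue for Rbp2f/f and red for Rbp2-/-. Col5a1 is ordered without overlap from 104 and 112 to 1173 and 959, whereas Col18a1 separates by genotype, and Col1a1 in Rbp2-/- without LIF has 1 array at 2811 and 1 at 716.

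The sequences just upstream of 4 of the 5 fibrillar genes that rose in Rbp2f/f are shown to set them side by side, since these genes moved together. They come from RefSeq on GRCm38.p6, all on the + strand, run 5′ to 3′ and end at the base before the RefSeq gene begins. Capitals mark the CCAAT box, the GC box written GGGCGG and the TATA box written TATAAA on either strand, so that CCGCCC marks a GC box and ATTGG marks a CCAAT box read from the other strand. No marked motif overlaps another. Col5a1 lies at chr2:27886175-27886380, Col1a2 at chr6:4505368-4505617, Col3a1 at chr1:45311288-45311537 and Col11a1 at chr3:114030290-114030478.
Col5a1: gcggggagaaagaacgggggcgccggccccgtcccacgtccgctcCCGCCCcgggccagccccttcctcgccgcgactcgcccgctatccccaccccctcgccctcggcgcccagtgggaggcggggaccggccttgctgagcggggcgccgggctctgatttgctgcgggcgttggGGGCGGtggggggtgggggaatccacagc
Col1a2: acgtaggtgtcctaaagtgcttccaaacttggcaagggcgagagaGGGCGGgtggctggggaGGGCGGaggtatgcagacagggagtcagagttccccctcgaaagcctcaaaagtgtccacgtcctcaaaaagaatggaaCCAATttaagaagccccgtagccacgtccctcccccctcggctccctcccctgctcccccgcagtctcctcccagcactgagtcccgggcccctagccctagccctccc
Col3a1: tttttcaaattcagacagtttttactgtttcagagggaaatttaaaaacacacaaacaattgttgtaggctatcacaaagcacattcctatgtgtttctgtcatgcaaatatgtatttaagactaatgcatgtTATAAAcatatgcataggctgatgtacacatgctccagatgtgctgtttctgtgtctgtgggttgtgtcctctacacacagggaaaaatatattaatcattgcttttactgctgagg
Col11a1: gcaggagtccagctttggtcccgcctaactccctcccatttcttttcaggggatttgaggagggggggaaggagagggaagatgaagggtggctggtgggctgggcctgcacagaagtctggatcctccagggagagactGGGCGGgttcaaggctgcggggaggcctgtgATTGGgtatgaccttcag
Col5a1 and Col1a2 hold 2 GC boxes each, Col11a1 holds 1 GC box and 1 CCAAT box, Col1a2 holds 1 CCAAT box and Col3a1 holds only a TATAAA. No single motif is shared by all 4. The RefSeq promoter table matched 33 of the 42 collagen genes with 36 windows. These windows are the 250 bases before that table's own start. For Col5a1 and Col11a1 it lies inside the gene span, at 27886425 and 114030540, so the pieces printed above were cut to 206 and 189 bases. The full Col11a1 window holds 2 GC boxes. In the 250 bases, GGGCGG was found in 21 of the 36 windows (58.3%) against 32.7% of all 32851 promoters. CCAAT was found in 13 (36.1%) against 33.8%, and TATAAA in 5 (13.9%) against 12.4%.

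Of the 4 tested type IV collagen genes, 3 rose in Rbp2f/f (Col4a1, Col4a2 and Col4a5) and 4 in Rbp2-/-, where Col4a6 joined them. Over all tested genes 13.2% and 19.6% were called higher. After quantile normalization the type IV counts were 3 and 2, against 14% and 7.34% of all genes. The median change of the 4 was 1.75 in Rbp2f/f and 1.09 in Rbp2-/-. With Col7a1 and Col18a1 counted as basement membrane collagens too, the medians over 6 genes were 1.14 and 0.78. Col4a1 and Col4a2 encode the chains of the common type IV network, while Col4a5 and Col4a6 belong to networks of more specialised basement membranes.

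Col4a1 read 1054 and 417 on the Rbp2f/f arrays with LIF and 536 and 981 on those of Rbp2-/-, and 2184 and 2596 on the Rbp2f/f arrays without LIF and 1448 and 1912 on those of Rbp2-/-. Col4a2 read 379 and 153, 202 and 313, 791 and 996, and 508 and 651 in the same order. For both genes the arrays with LIF spread widely and the genotypes overlapped there, while every array without LIF was higher than every array with LIF. Col4a1 changed by 1.75 ± 0.37 in Rbp2f/f (adjusted p = 0.0032) and 0.79 ± 0.37 in Rbp2-/- (adjusted p = 0.0328). Col4a2 changed by 1.74 ± 0.36 (adjusted p = 0.00286) and 0.76 ± 0.36 (adjusted p = 0.034). Quantile normalization ended both calls in Rbp2-/- (adjusted p = 0.252 and 0.249), and those in Rbp2f/f ended without replicate 2 with LIF (adjusted p = 0.0504 and 0.0513). In RefSeq this pair is transcribed in opposite directions from chromosome 8, with starts 21 bases apart at 11312826 and 11312805.

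Col4a5 and Col4a6 also lie head to head, on chromosome X with starts 1343 bases apart, but differed in the order of the groups. Col4a5 read 73.1 and 39.6 on the Rbp2f/f arrays with LIF and 22.9 and 41.7 on those of Rbp2-/-, and 198 and 314 on the Rbp2f/f arrays without LIF and 129 and 167 on those of Rbp2-/-. Col4a6 read 40.6 and 23.5, 4.0 and 9.9, 48.2 and 65.1, and 67.4 and 73.8 in the same order. Col4a6 was thus lowest in Rbp2-/- cells with LIF and highest in Rbp2-/- cells without it, with no overlap between genotypes in either medium. A second Col4a6 probe set, too dim to be tested, overlapped between genotypes in both media. Col4a5 rose by 1.85 ± 0.32 in Rbp2f/f (adjusted p = 0.000757) and 1.40 ± 0.32 in Rbp2-/- (adjusted p = 0.00149). Col4a6 rose by 1.54 ± 0.29 in Rbp2-/- (adjusted p = 0.00049) and its change in Rbp2f/f was 0.54 ± 0.29 (adjusted p = 0.162). Col4a3 and Col4a4, the chains of the mature kidney and lung network, read no more than 18.0 on any array and were not tested.

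Among the 11 other collagens tested, 3 rose in Rbp2f/f and 2 in Rbp2-/-, with medians of 0.45 and 0.19. Over all genes 13.2% and 19.6% were called higher, and after quantile normalization the count in Rbp2-/- was 1. The type VI chains form beaded filaments around cells. Col6a1 read 20.7 and 3.8 on the Rbp2f/f arrays with LIF and 26.0 and 12.3 on those of Rbp2-/-, and 80.5 and 66.1 on the Rbp2f/f arrays without LIF and 81.2 and 44.9 on those of Rbp2-/-. Col6a3 read 37.3 and 21.1, 32.7 and 25.8, 61.7 and 76.8, and 44.9 and 62.7 in the same order. Both genes were higher without LIF in each genotype with no overlap. Col6a1 rose by 1.66 ± 0.35 in Rbp2f/f (adjusted p = 0.00313) and by 0.77 ± 0.35 in Rbp2-/- (adjusted p = 0.0278, and 0.104 after quantile normalization). Col6a3 rose by 0.87 ± 0.29 in Rbp2f/f (adjusted p = 0.0329), a call lost when any of 3 arrays was left out (replicate 2 of Rbp2f/f with LIF and both Rbp2f/f arrays lacking LIF). In Rbp2-/- it stood at 0.23 (adjusted p = 0.132). Their partner Col6a2 read 133 and 78.8, 124 and 62.8, 78.6 and 80.8, and 83.1 and 100, with overlapping arrays and changes of -0.38 and -0.35 that were not called (adjusted p = 0.527 and 0.951). A second Col6a2 probe set stood at 0.17 and -0.04.

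Col23a1, a transmembrane collagen, read 28.3 and 12.6 on the Rbp2f/f arrays with LIF and 18.3 and 24.2 on those of Rbp2-/-, and 84.0 and 68.6 on the Rbp2f/f arrays without LIF and 87.2 and 79.0 on those of Rbp2-/-. It rose by 1.30 ± 0.29 in Rbp2f/f (adjusted p = 0.00396) and by 1.03 ± 0.29 in Rbp2-/- (adjusted p = 0.00342). Col7a1, the anchoring fibril collagen of the skin, read 56.9 and 29.6, 43.1 and 55.8, 51.8 and 83.7, and 71.6 and 91.6 in the same order. Its changes of 0.45 and 0.19 were not called (adjusted p = 0.264 and 0.182).

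Col18a1, a basement membrane collagen whose C-terminal fragment is endostatin, read 1490 and 1888 on the Rbp2f/f arrays with LIF and 944 and 780 on those of Rbp2-/-, and 1906 and 2526 on the Rbp2f/f arrays without LIF and 723 and 977 on those of Rbp2-/-. All 4 Rbp2-/- arrays lay below all 4 Rbp2f/f arrays, and the Rbp2f/f arrays without LIF lay above those with LIF. Its withdrawal changes were 0.32 (adjusted p = 0.320) and -0.41 (adjusted p = 0.946).

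The 17 genes that were not tested read between 0.3 and 45.7 on any array, with means up to 26.9 (Col16a1). They were 14 other collagens, among them Col9a2, Col10a1, Col14a1 and Col17a1, the type IV pair named above and the fibrillar Col24a1. The dimmest tested gene, Col11a2, had a mean of 29.8. Values this low do not show whether a gene is silent. Col9a2, a fibril-associated chain of cartilage, read 15.2 and 13.5 on the Rbp2f/f arrays with LIF, against 1.6 and 0.8 on those without LIF. In Rbp2-/- Col9a2 read 7.4 and 1.4 with LIF and 1.3 and 1.0 without it. With no filter on dim genes Col9a2 was called lower on withdrawal in Rbp2f/f, at -0.83 (adjusted p = 0.0177). The same fit called Col8a2, also untested, higher on withdrawal in Rbp2-/-, where it read 3.4 and 8.5 with LIF and 36.6 and 22.7 without. Over all 18193 genes that fit called 1696 on withdrawal in Rbp2f/f and 1767 in Rbp2-/-.

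**Figure D2:**
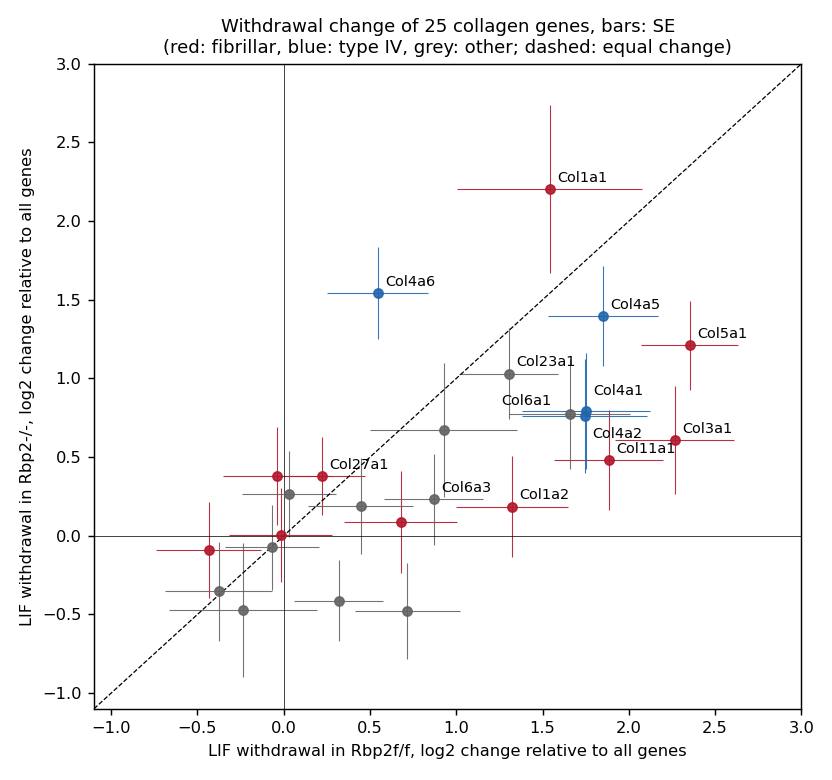
Change of each of the 25 tested collagens on LIF withdrawal (log2, relative to all genes, bars for SE) in Rbp2f/f cells (horizontal axis) and Rbp2-/- cells (vertical axis), with class in colour and a dashed line where both are equal. Col3a1 at 2.27 and 0.61 lies far below the line, and Col1a1 and Col4a6 lie above it.

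The genotypes were compared next within each medium, which asks how collagen levels differ with the loss of RBP2. These comparisons use the same 8 arrays as the withdrawal comparisons, so the changes of one gene in them are not independent. With LIF, 1 of the 25 collagens was called higher in Rbp2-/- and 0 lower, where 0.0641% of all tested genes were called higher and 0.165% lower. The gene was Col5a1, at 1.80 ± 0.28 (adjusted p = 0.0407), from the values given above. The call did not hold after quantile normalization (adjusted p = 0.111, when 0% of all tested genes were called) and was lost under 11 of 21 alternatives, including without either Rbp2f/f array with LIF and without replicate 2 of Rbp2-/- with LIF. Leaving out 1 array at a time, its change stayed between 1.30 and 2.32. Its 3 tested probe sets stood at 1.78, 2.40 and 0.94.

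Col1a2 stood at 1.45 ± 0.32 with LIF and was not called (adjusted p = 0.126). A second Col1a2 probe set stood at 1.89. The type IV chain Col4a6 was at -0.78 ± 0.29 (adjusted p = 0.126), Col18a1 at -0.68 ± 0.26 (adjusted p = 0.117) and Col2a1, the cartilage collagen, at -0.65 ± 0.31 (adjusted p = 0.181). A second Col18a1 probe set stood closer to the median gene, at -0.314 ± 0.286 (limma adjusted p = 0.359 with every probe set fitted). With LIF, Col2a1 read 47.8 and 60.6 on the Rbp2f/f arrays and 16.3 and 25.8 on those of Rbp2-/-. Without overlap, 3 of 25 collagens were higher in Rbp2-/- (4.42% of all genes) and 5 lower (39.2%). The class medians were 0.39 for fibrillar, 0.02 for type IV and 0.25 for other collagens.

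Without LIF, limma called 0 of the 25 collagens between genotypes, where 0.0183% of all tested genes were called higher in Rbp2-/- and 0.00916% lower, and 1091 of the 10916 had an unadjusted p under 0.05. Col18a1 had the smallest adjusted p of the collagens and stood at -1.39 ± 0.26 (adjusted p = 0.0783, and 0.119 after quantile normalization), with the Rbp2f/f arrays at 1906 and 2526 and the Rbp2-/- arrays at 723 and 977. A second Col18a1 probe set stood at -1.003. Col11a1 was at -1.41 ± 0.32 (adjusted p = 0.117) and Col3a1 at -1.34 ± 0.35 (adjusted p = 0.161), neither with overlapping arrays. Col1a1 was at 1.38 ± 0.54 (adjusted p = 0.366) and ranged from 0.35 to 2.41 over the arrays left out in turn. In some fits with 1 array left out collagens were called, but calls over all genes rose there too. Over the arrays left out in turn, Col18a1 ranged from -1.583 to -1.197, Col11a1 from -1.735 to -1.086 and Col3a1 from -1.413 to -1.268.

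The fibrillar genes thus spread widely between genotypes without LIF, from -1.41 for Col11a1 to 1.38 for Col1a1, with a median of 0.28. Of the 4 type IV genes, Col4a5 stood at -0.73, Col4a2 at -0.64 and Col4a1 at -0.54, each below Rbp2f/f on both arrays, and Col4a6 at 0.24. Their median was -0.59, and none was called. Without overlap, 8 of 25 collagens were higher in Rbp2-/- (30.5% of all genes) and 7 lower (22.8%).

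**Figure D3:**
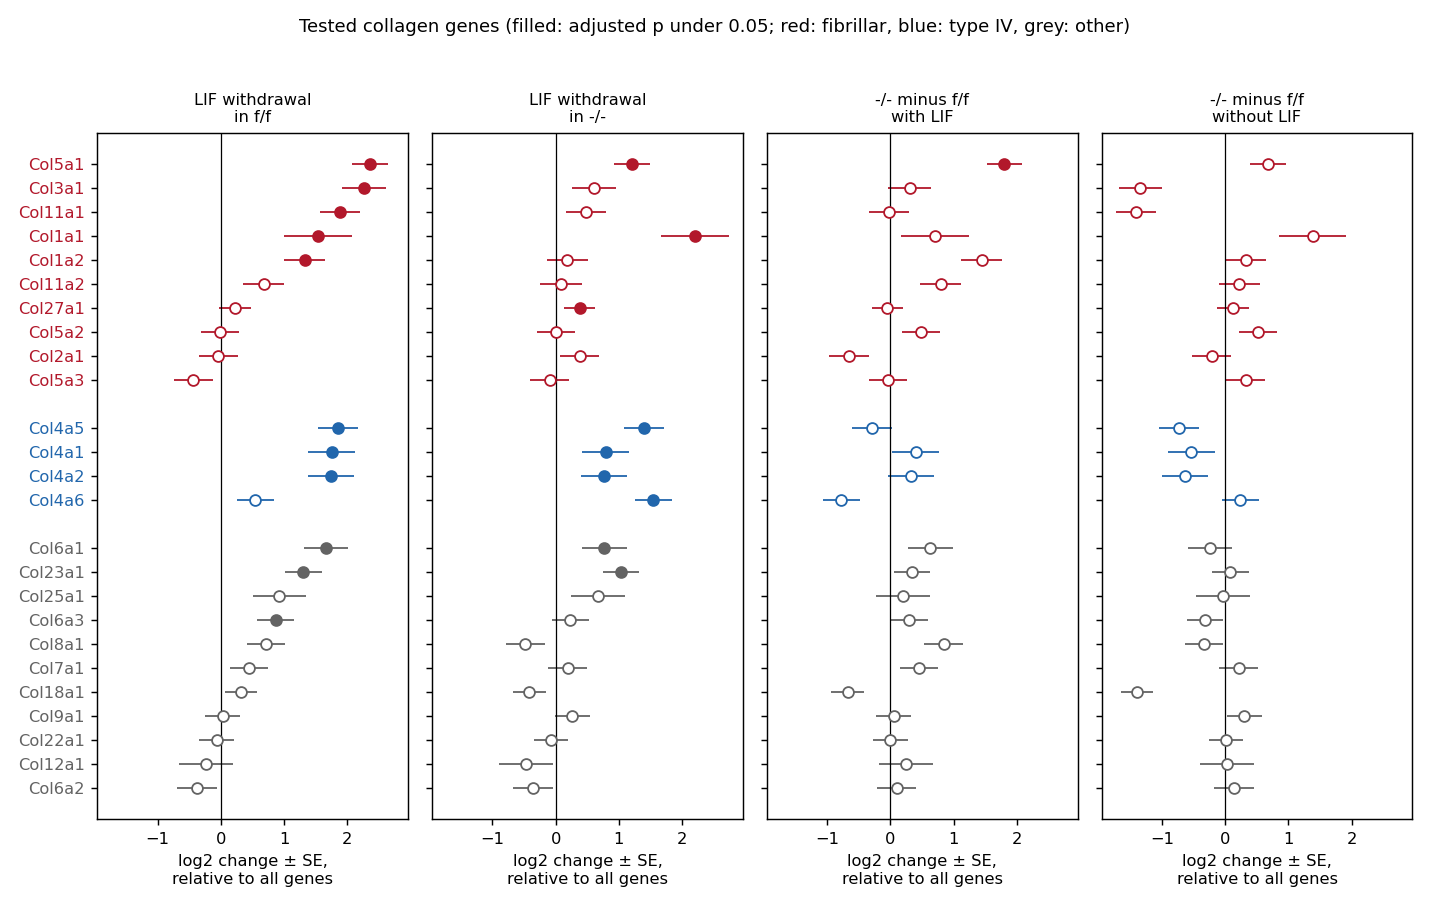
Change of the 25 tested collagens (log2 ± SE, relative to all genes, horizontal axes) in 4 comparisons, by class from top (fibrillar, red; type IV, blue; other, grey), with filled points where limma's adjusted p was under 0.05. Filled points lie to the right of 0 in both withdrawal panels, 11 and 9 of 25, and in the genotype panels Col5a1 with LIF is the only filled point.

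Whether withdrawal acted differently in the genotypes was tested by the interaction, the change in Rbp2-/- minus that in Rbp2f/f. Limma called 0 of 25 collagens and 0% of the 10916 genes, with a smallest adjusted p of 0.212 over all genes, and 1268 genes at an unadjusted p under 0.05. Col3a1 stood at -1.65 ± 0.49 (adjusted p = 0.371), Col11a1 at -1.39 ± 0.45 (adjusted p = 0.404), Col1a2 at -1.13 ± 0.46 (adjusted p = 0.481), Col5a1 at -1.13 ± 0.40 (adjusted p = 0.440) and Col4a6 at 1.01 ± 0.42 (adjusted p = 0.360). The genes called on withdrawal in one genotype alone are therefore not shown to respond differently. Without replicate 1 of Rbp2-/- with LIF, Col3a1 stood at -2.32 and Col5a1 at -1.64. That fit leaves 1 array in the group, and its calls appeared across all genes, not collagens alone.

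With LIF, replicates of one group were not alike for collagens as a class. In Rbp2f/f with LIF, 21 of the 25 collagens were higher on replicate 1 than on replicate 2, against 53.9% of all genes, with a median gap of 0.63 against 0.03. In Rbp2-/- with LIF 10 of 25 were higher on replicate 1 against 82.4% of all genes, with a median gap of -0.12 against 0.40. Without LIF the counts were 8 in Rbp2f/f (46.8% of all genes) and 9 in Rbp2-/- (33.7%). The median gaps without LIF lay closer to those of all genes, at -0.09 against -0.02 in Rbp2f/f and -0.21 against -0.12 in Rbp2-/-. Relative to all genes on the same array, the type IV median stood at -0.20 and -1.20 on the Rbp2f/f arrays with LIF and at -1.18 and -0.21 on those of Rbp2-/-, and at 0.79 and 1.06 on the Rbp2f/f arrays without LIF and 0.28 and 0.52 on those of Rbp2-/-. The fibrillar medians were -0.40 and -0.59, -0.24 and 0.17, 0.20 and 0.21, and 0.24 and 0.19 in the same order. Both classes were thus lower on each Rbp2f/f array with LIF than on either Rbp2f/f array without it.

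**Figure D4:**
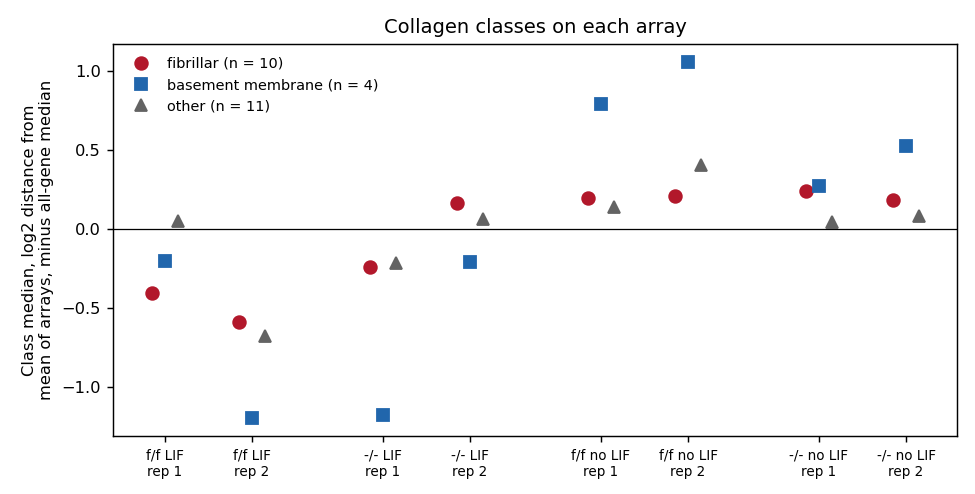
Median of each collagen class on each of the 8 arrays (horizontal axis), as the log2 distance of its genes from their mean over arrays minus the same for all genes (vertical axis). The type IV squares lie at -0.20 and -1.20 in Rbp2f/f with LIF and at 0.79 and 1.06 in Rbp2f/f without LIF, and the replicates with LIF lie about as far apart in Rbp2-/-, at -1.18 and -0.21.

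Most of the 12 genes with more than 1 tested probe set gave the same direction on each. The probe sets agreed in sign for 10 of 12 genes on withdrawal in Rbp2f/f, 11 of 12 in Rbp2-/-, 10 of 12 between genotypes with LIF and 8 of 12 without LIF. On withdrawal in Rbp2f/f the 3 Col5a1 probe sets stood at 2.35, 3.22 and 1.94, the Col11a1 pair at 1.88 and 1.90, the Col4a5 pair at 1.85 and 1.78 and the Col23a1 pair at 1.30 and 1.29. Col12a1, a fibril-associated collagen, differed between its probe sets at -0.24 and 0.97.

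Collagen chains need a dedicated set of proteins to fold, leave the cell, assemble and signal, and these were followed in 9 lists. Their counts stand against the 13.2% of all genes called higher in Rbp2f/f and the 19.6% in Rbp2-/-, which become 14% and 7.34% after quantile normalization. On withdrawal 8 of 17 tested genes of collagen folding and modification rose in Rbp2f/f and 8 of 17 in Rbp2-/-, with medians of 0.67 and 0.31. After quantile normalization the counts were 10 and 4. Serpinh1, the collagen chaperone HSP47, read 799 and 759 on the Rbp2f/f arrays with LIF and 936 and 1288 on those of Rbp2-/-, and 3098 and 3516 on the Rbp2f/f arrays without LIF and 3275 and 2969 on those of Rbp2-/-. Arrays with and without LIF did not overlap, and it rose by 2.00 ± 0.23 (adjusted p = 3.29e-05) and 1.11 ± 0.23 (adjusted p = 0.000492). The prolyl hydroxylase subunit gene P4ha1 (0.79 and 1.28), the lysyl hydroxylase gene Plod2 (1.19 and 0.45) and P3h4, a partner of prolyl and lysyl hydroxylation (1.55 and 0.95), rose in both genotypes. Quantile normalization ended the calls of P4ha1 in Rbp2f/f (adjusted p = 0.0577) and of Plod2 in Rbp2-/- (adjusted p = 0.293). Of 10 export genes 2 rose in Rbp2f/f and 4 in Rbp2-/-, both counts including Creb3l1 (0.83 and 0.47) and Creb3l2 (1.03 and 0.45), transcription factors of the secretory pathway. After quantile normalization the export counts were 3 and 1, and both of these genes lost their calls in Rbp2-/- (adjusted p = 0.204 and 0.207).

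Outside the cell, Bmp1, the protease that trims fibrillar procollagen, read 177 and 87.3 on the Rbp2f/f arrays with LIF and 160 and 243 on those of Rbp2-/-, and 607 and 856 on the Rbp2f/f arrays without LIF and 353 and 454 on those of Rbp2-/-. It rose by 2.32 ± 0.34 in Rbp2f/f (adjusted p = 0.0002), and its change in Rbp2-/- was 0.58 ± 0.34 (adjusted p = 0.0501). In this list of 5 tested genes Pcolce2 fell by 1.20 in Rbp2f/f (adjusted p = 0.0127) and Pcolce, an enhancer of that protease, fell by 1.44 in Rbp2-/- (adjusted p = 0.0244). Of 6 crosslinking genes 2 rose in each genotype, Pxdn (1.87 and 1.12), whose product crosslinks type IV collagen, and the lysyl oxidase family gene Loxl1 (1.10 and 0.86). The Loxl1 call in Rbp2-/- ended after quantile normalization (adjusted p = 0.0574). The lysyl oxidase gene Lox stood at -0.19 and -0.94 and was not called.

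Of 9 genes of the matrix around fibrils 8 rose in Rbp2f/f and 5 in Rbp2-/-, with medians of 1.49 and 0.55. After quantile normalization the counts were 8 and 2. Fn1, which encodes fibronectin, rose by 1.49 ± 0.20 (adjusted p = 0.000112) and 0.55 ± 0.20 (adjusted p = 0.00483, and 0.0575 after quantile normalization), and the fibrillin gene Fbn2 by 1.92 and 1.65. Tnc (tenascin C) and Thbs1 (thrombospondin 1) rose in Rbp2f/f (1.60 and 1.70) and stood at -0.12 and -0.22 in Rbp2-/-. Of 11 basement membrane partners of type IV collagen 2 rose in Rbp2f/f, Agrn (1.37) and Hspg2 (0.77), and 3 in Rbp2-/-, Agrn (0.97), Hspg2 (0.38) and Lamb2 (0.55). Of the last 3, Agrn alone was called after quantile normalization, with Hspg2 and Lamb2 at adjusted p = 0.200 and 0.0641. The laminin chains Lama1, Lamb1 and Lamc1 were at 0.55, 0.50 and 0.35 in Rbp2f/f and were not called.

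Only 3 of 10 collagen receptor genes on the array were bright enough to test, and 2 of them rose in both genotypes. Mrc2, an endocytic collagen receptor, read 23.9 and 22.7 on the Rbp2f/f arrays with LIF and 21.3 and 5.5 on those of Rbp2-/-, and 188 and 170 on the Rbp2f/f arrays without LIF and 246 and 154 on those of Rbp2-/-. It rose by 2.24 ± 0.31 (adjusted p = 0.000137) and 2.51 ± 0.31 (adjusted p = 2.87e-05), and the integrin gene Itgb1 by 1.29 and 0.76 (adjusted p = 0.0926 in Rbp2-/- after quantile normalization). Of 7 turnover genes 4 rose in Rbp2f/f, the inhibitors Timp2 (1.83) and Timp3 (1.34) and the proteases Mmp14 (1.29) and Mmp2 (1.04). In Rbp2-/- 3 rose, Timp2 (0.86), Mmp14 (0.84) and Mmp2 (1.00), of which Timp2 and Mmp14 were not called after quantile normalization (adjusted p = 0.130 and 0.143). Of 16 genes that regulate collagen transcription 8 rose in Rbp2f/f and 8 in Rbp2-/-, with Twist1 at 1.89 and 1.43, Snai1 at 1.59 and 1.21 and the ligand gene Tgfb1 at 1.53 and 1.68. After quantile normalization the regulator counts were 7 and 4, with these 3 genes called in both genotypes. In none of the 9 lists was a gene called between genotypes in either medium or in the interaction. Over all 10916 genes only 25 were called with LIF, 3 without LIF and 0 in the interaction. The absence of calls is therefore close to the share of all genes and says little about the lists.

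**Figure D5:**
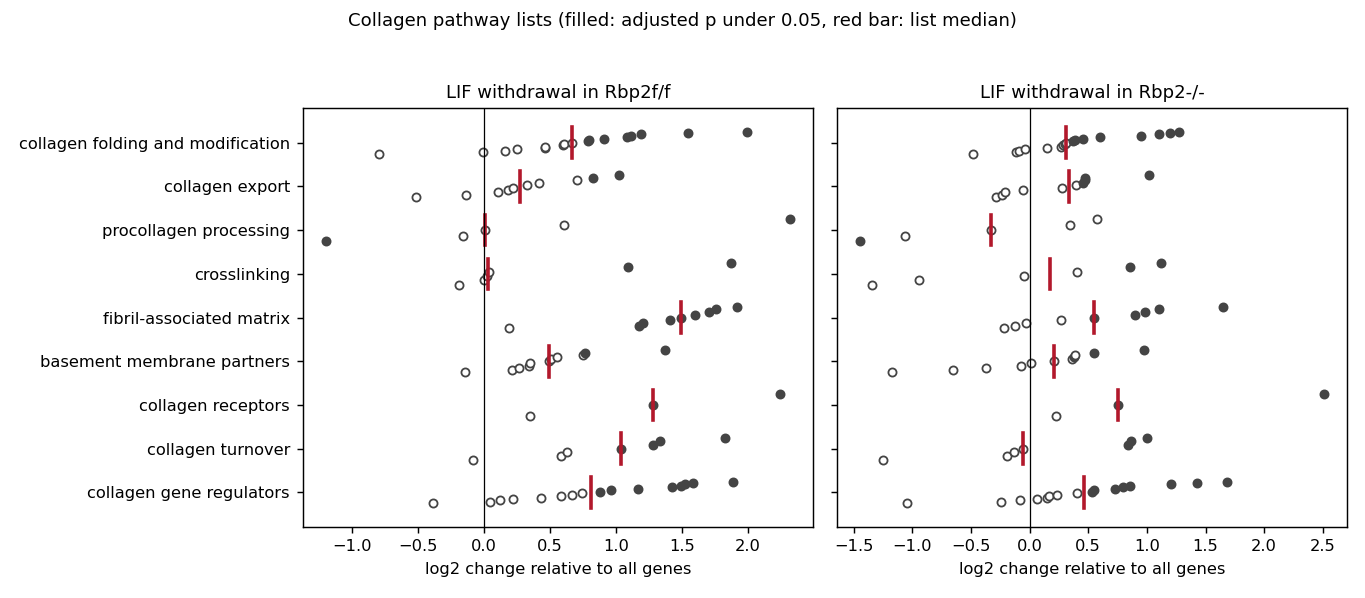
Change of each tested gene of 9 collagen pathway lists (log2, relative to all genes, horizontal axis) on withdrawal in Rbp2f/f cells (left) and Rbp2-/- cells (right), filled where limma's adjusted p was under 0.05, with a red bar at each list's median. The matrix genes around fibrils have a median of 1.49 on the left and 0.55 on the right, and Bmp1 on the left (2.32) and Mrc2 on the right (2.51) lie farthest out.

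Markers of other cell types moved with the same comparisons. In these bulk cultures a change in the share of collagen-making cells cannot be told apart from a change in RNA per cell. All 11 tested mesoderm and mesenchyme markers rose in both genotypes (10 and 10 after quantile normalization), with medians of 1.89 and 1.85, and their summed intensity was 408 to 921 on the 4 arrays with LIF and 2303 to 7937 without. Of 10 tested markers of parietal and primitive endoderm, cells that lay down type IV collagen and laminin, 8 rose in Rbp2f/f and 5 in Rbp2-/- (8 and 4 after quantile normalization). The sum of the 12 on the array was 2035 to 4054 with LIF and 6475 to 8264 without. Most of this sum came from Sparc, which is also in the list of matrix around fibrils. Sparc read 1475.8 to 3040.1 with LIF and 4012.5 to 5079.1 without. Of 14 feeder fibroblast markers on the array 8 were tested and 4 rose in each genotype, Pdgfrb, Mmp2, Postn and Twist2, of which Postn and Twist2 were not called in Rbp2-/- after quantile normalization (adjusted p = 0.105 and 0.0620). Mmp2 is also in the turnover list and Postn in the list of matrix around fibrils. Marker and pathway lists share further genes, among them Lama1, Twist1, Dcn, Lum and Lox, so they are not separate. The sum of the 14 feeder fibroblast markers was 4046 and 1365 on the Rbp2f/f arrays with LIF, on which Acta2 read 3596 and 1017. The Rbp2-/- arrays with LIF gave 2570 and 3720. Without LIF the sum was 4848 and 6635 on the Rbp2f/f arrays and 2482 and 3860 on those of Rbp2-/-. Replicate 2 of Rbp2f/f with LIF had the lowest sum. Without Acta2, a sum taken after these values were seen, the other 13 markers gave 450.4 and 348.3 on the Rbp2f/f arrays and 356 and 333.6 on those of Rbp2-/- with LIF, and 779.8 to 1036 on the 4 arrays without it, so that replicate 2 of Rbp2f/f with LIF was no longer lowest. Of the cartilage, endothelium and neural markers 1, 1 and 2 were tested, and none rose in either genotype. Their sums on any array were at most 225, 353 and 589. The part of any of these cell types in the collagen values was not tested.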

How the data were processed

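RNA of 8 ES cell samples was labelled from 6 µg of total RNA, per the labels' protocols, and the authors deposited 1 linear intensity per probe set and array. How probes were summarised and scaled is not given in the sources used here. The platform annotation named 1 gene for 34958 of the 45101 probe sets, several for 932 and none for 9211. Intensities were used as deposited. Each gene took the probe set with the highest mean of log2(intensity + 16), and the 10916 of 18193 genes at or above the 40th percentile of that mean were tested. Limma 3.58.1 in R 4.3.3 fitted 4 group means to all 8 arrays (lmFit, eBayes with trend, prior df 11.2, residual df 4), two-sided, with Benjamini-Hochberg adjustment over all tested genes in each contrast. The script was tested on simulated data. With 2 arrays a group, their number limits the precision.

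Values on every array are given for collagens called in any contrast and for the 12 with the highest mean; from other lists, up to 4 genes with the smallest p, and others beyond that rule were chosen after their values were seen. Collagen classes, pathway lists and markers were chosen with earlier results of these data known. Alternatives were quantile normalization, median centring, pseudocounts of 1 and 64, no filter and a 60th percentile filter, other probe set rules, robust or untrended eBayes, array weights, a replicate block, a threshold of 0.01 and each array left out.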

Additional observations from a re-analysis of the deposited data

Results flagged for a closer look

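On the chosen probe sets of 2 collagens the genotypes were ordered one way with LIF and the opposite way without it. The arrays did not overlap in either medium, as deposited and after quantile normalization. Over all tested genes with LIF, 39.2% were lower in Rbp2-/- without overlap and 4.42% higher. Without LIF 30.5% were higher and 22.8% lower. Reversals of order were not counted over all genes, so the 2 collagens are not shown to be unusual. With LIF, Col4a6 gave 40.6 and 23.5 on the Rbp2f/f arrays and 4.0 and 9.9 on those of Rbp2-/-, while without LIF the pairs were 48.2 and 65.1 against 67.4 and 73.8. The difference between these effects, tested by limma's interaction term, was 1.01 ± 0.42 and was not called (adjusted p = 0.360). Another Col4a6 probe set, too dim to be tested, overlapped between genotypes in both media. It read 4.3 and 2.0 in Rbp2f/f against 0.8 and 3.3 with LIF, and 9.6 and 2.3 against 11.3 and 7.1 without. Col8a1, a short-chain collagen of vessel walls and the cornea, gave 29.9 and 11.6 on the Rbp2f/f arrays and 36.2 and 37.0 on those of Rbp2-/- with LIF, and 37.7 and 53.7 against 36.8 and 30.1 without LIF. Its interaction was -1.18 ± 0.43 (adjusted p = 0.446). Another Col8a1 probe set, too dim to be tested, was lower in Rbp2-/- in both media, at 43.2 and 12.1 against 6.3 and 9.4 with LIF and 18.2 and 30.4 against 11.4 and 12.9 without, and so did not change its order.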

How the results depend on the processing

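Over the 21 alternatives, named collagens kept their direction and side of the threshold in 505 comparisons, lost a call in 76, gained one in 16 and reversed in 0. Class medians stayed within the spread between replicates in 266 and moved beyond it in 39. Several alternatives can change a call but not a direction or a median, so these counts say less about directions and medians than about calls. They are median centring, robust or untrended eBayes, array weights, a replicate block, the stricter threshold and leaving out an array outside the contrast. Col3a1, Col4a5, Col5a1, Col6a1, Col11a1 and Col23a1 on withdrawal in Rbp2f/f, and Col4a5, Col4a6 and Col5a1 in Rbp2-/-, were called under all alternatives in which they were tested. The cause of the changes below was not tested.

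Between genotypes with LIF the 1 called collagen became 0 after quantile normalization, median centring or array weights, where 0 of all tested genes were called. It also became 0 with pseudocount 64, no filter, the mean of all probe sets, every probe set fitted or a threshold of 0.01. The count changed in some fits with 1 array left out, where the median of 0.30 ranged from -0.13 to 0.63. Without LIF the count of 0 became 2 with pseudocount 64 and 3 with array weights, where 51 and 479 of all 10916 tested genes were called. It did not stay 0 in every fit with 1 array left out. The median of 0.03 became -0.24 with the mean of all probe sets. On withdrawal in Rbp2f/f 11 became 7 with the 60th percentile filter and 7 to 12 with 1 array left out. The median of 0.72 became 1.19 with pseudocount 1, 0.33 with 64, 0.27 with no filter, 1.65 with the stricter filter, 0.99 with the mean of probe sets and 0.50 to 1.07 with 1 array left out. In Rbp2-/- 9 became 5 after quantile normalization, with array weights or at 0.01, 4 after median centring and 6 to 10 with 1 array left out, and the median of 0.38 became 0.67 with the stricter filter and 0.12 to 0.65 with 1 array left out. The interaction count of 0 became 0 to 2 with 1 array left out, and its median of -0.26 became -0.85 with the stricter filter, -0.56 with the mean of probe sets and -0.75 to 0.048 with 1 array left out.

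Same-numbered replicates did not all deviate together (correlations from -0.08 to 0.26 over 6 pairs of groups), so the number was not taken as a pairing. With a replicate block 2 collagens were called with LIF (Col1a2 and Col5a1, higher) and 4 without LIF (Col1a1 higher, Col3a1, Col11a1 and Col18a1 lower). The block gave 11 and 12 on withdrawal in Rbp2f/f and Rbp2-/-, and 0 in the interaction. Over all 10916 tested genes it called 140, 149, 2378, 2677 and 9 in the same order, against 25, 3, 2188, 2486 and 0 in the main fit. Leaving out an array leaves a group of 1, assumed to vary like the others. For 17 of 42 collagens low signal prevented a test.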
